A study of Rattus norvegicus with 18 samples.

Results

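The prelimbic cortex (PL) of rats trained in inhibitory avoidance was compared 1 h after training with that of untrained rats. The comparison rested on 6 of the series' 18 libraries: 3 pools of rats trained 1 h before and 3 pools of naive rats, chosen by their titles. The animals were adults of Long-Evans, an outbred strain of laboratory rat, and each pool combined RNA of 5 rats. Naive rats stayed in the home cage, and trained rats learned to keep out of a compartment in which they had received a foot shock. The labels name no group that was handled or shocked without learning, so that handling, the context, the shock and the learning cannot be told apart. The remaining PL pools, 3 from rats killed 6 d after training, entered the fit for the estimate of the spread and are described beside the others. The other 9 libraries came from the dorsal hippocampus (dHC) in the same 3 conditions.

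The prelimbic cortex is a medial prefrontal area that takes part in the expression and the long-term storage of aversive memories. When cortical neurons are strongly driven, a first wave of transcripts, the immediate early genes, rises within minutes and without new protein synthesis. Many of its products are transcription factors, which act on a later wave of genes for synaptic and signalling proteins. The submitters' protocol states that induction of one such gene, c-Fos, was checked by RT-PCR in the individual animals before pooling. Transcripts of this kind are short-lived and usually return to baseline within hours.

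The deposited tables list genes by Ensembl ID, and no table used here pairs these IDs with names: 0 of the 32662 IDs matched. The changes are therefore described by direction, size, level and pool for all genes, and 4 IDs are given singly, namely the 2 that rose most and the 2 that fell most by a rule stated with the processing. For the same reason the tissue and the cell types in the punches were not checked against marker genes. In such bulk tissue, fewer cells of a type and less RNA per cell cannot be told apart.

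Total gene counts of the PL libraries ran from 7463875 to 9215695, those of the compared pools from 8145006 to 9215695, and between 18050 and 18288 genes had at least 1 count. A value of 3 counts, taken as the floor, corresponded to 0.326 to 0.402 CPM (gene counts of a library scaled to a common total), which covers counting error only.

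The libraries were first placed relative to each other. Naive and 6 d pools were not separate from each other. By mean distance over all genes tested, naive pool 3 and 6 d pools 1 and 3 each lay nearer to the other group than to their own. On the first principal component of log2 CPM over the 14318 genes tested, which held 23.7% of the variance of the 9 PL libraries, the 1 h pools lay at 19.2, 17.4 and 16.5. The 6 other PL pools lay between −17.4 and −5.24, so that the 1 h pools were apart from naive and 6 d pools alike. The second component held 16.1% of the variance and crossed the groups. Naive pools 1 and 2 lay there at −13.4 and −8.43, with 6 d pool 1 at −9.18 and 1 h pool 1 at −10.9. Naive pool 3 lay at 9.42, beside 6 d pool 3 at 7.46. On this component 6 d pool 2, at 20.6, was further from naive pool 3 than 1 h pools 2 and 3, at 2.08 and 2.44.

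**Figure D1:**
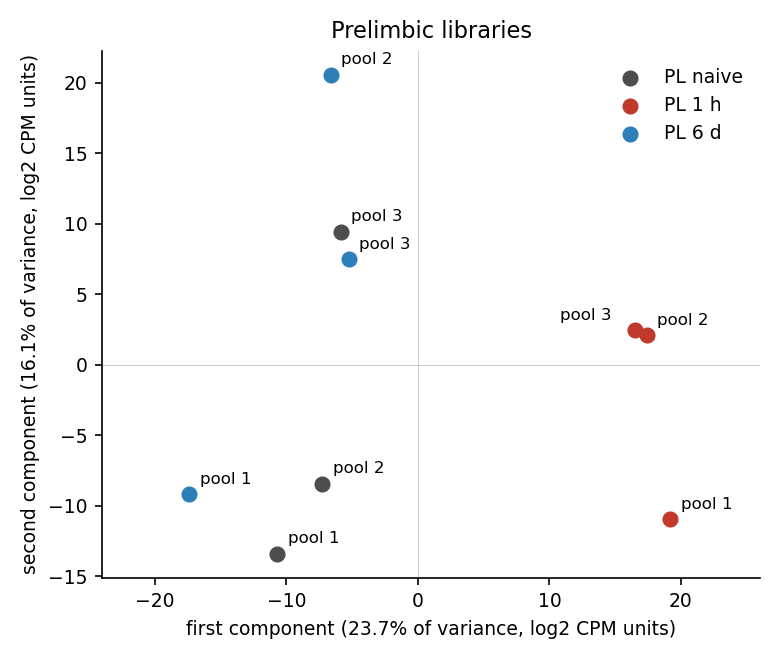
Position of the 9 prelimbic libraries on the first and second principal component of log2 CPM over all genes tested, each point 1 pool. The 3 pools at 1 h lie at the right, and naive pool 3 lies beside 6 d pool 3, with 6 d pool 2 further up, rather than beside naive pools 1 and 2.

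Distances over all genes tested gave a like placement. The distance between a pair of libraries, as the root mean square difference in log2 CPM over genes, was 0.298 between naive pools 1 and 2. Naive pool 3 was 0.322 and 0.310 away from them, but 0.298 from 6 d pool 3 and 0.301 from 6 d pool 2. Its mean distance was 0.316 to the other naive pools, 0.304 to the 6 d pools and 0.341 to the 1 h pools. In reverse, 6 d pool 1 had naive pool 1 as its nearest library, at 0.292, and its mean distance was 0.306 to the naive and 0.334 to the other 6 d pools. For 6 d pool 3 these were 0.307 and 0.315. Over the 500 most variable genes, naive pool 3 was nearest to 6 d pool 1, at 0.797, followed by naive pool 2 at 0.799 and 6 d pools 3 and 2 at 0.807 and 0.820, so that its grouping with 6 d pools 2 and 3 did not hold there. The 3 libraries highest on the second component, naive pool 3 and 6 d pools 2 and 3, were also the 3 PL libraries with the highest share of reads outside gene models, with 12.6%, 12.6% and 13.6% against 10.5% to 12.2% in the others. They also had the lowest share of counts in the 100 most abundant genes, with 15.3%, 15.2% and 15.4% against 15.5% to 15.9%. The part of these read properties in the placement was not tested.

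Most genes had small changes at 1 h. The log2 fold change had a median of 0.00 over the 14318 genes, the median absolute change was 0.11, and 50.1% of genes were above 0, a balance that the TMM scaling largely sets. The 95% interval of the change lay within 0.5 on the log2 scale in either direction for 68.6% of the genes and within 1 for 91.8%. With edgeR's quasi-likelihood test and Benjamini-Hochberg adjustment over all genes, 206 genes (1.44%) passed an adjusted p of 0.05, which is what "called" means below. Of these, 112 (0.782%) rose and 94 (0.657%) fell.

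**Figure D2:**
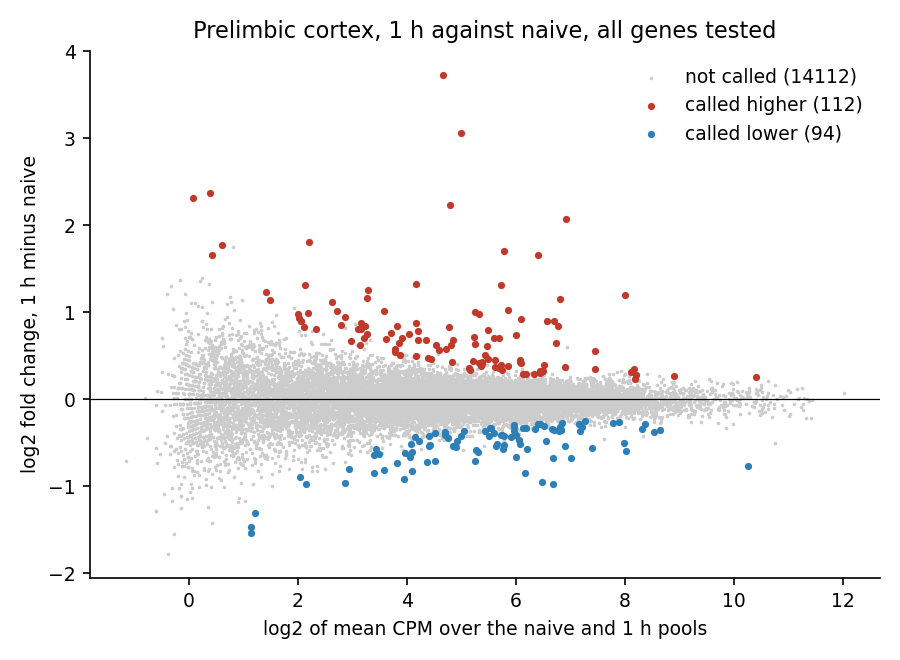
Log2 fold change, 1 h minus naive, against the log2 of the mean CPM over the 6 compared pools, each point 1 of 14318 genes. The 112 genes called higher reach 3.73 and the 94 called lower reach −1.53, so the changes upward extend further.

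Taken over all levels, rising genes had the larger changes. Their log2 fold changes ran from 0.24 to 3.73 with quartiles of 0.43 and 0.95, and 24 of them rose more than 2-fold, 6 more than 4-fold. Falling genes ran from −0.26 to −1.53 with quartiles of −0.36 and −0.64, and 3 of them fell more than 2-fold and 0 more than 4-fold. A change under 1.5-fold made up 44 of the 112 rises and 65 of the 94 falls. For all 112 rising genes the 3 pools at 1 h lay above the 3 naive pools. For 88 of the 94 falling genes they lay below, and for 6 the pools overlapped. Over all genes tested, 11.3% had every 1 h pool above every naive pool and 9.87% every 1 h pool below, so separation of the pools alone was common.

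The rising genes were spread over the range of expression, and the falling genes leaned to abundant transcripts. The genes were cut by mean level into 4 classes of equal size. In the lowest class, up to 7.07 CPM, 18 genes rose and 5 fell. In the second, 33 rose and 21 fell. In the third, up to 66.5 CPM, 35 rose and 28 fell. In the highest, 26 rose and 40 fell. The size of the called changes shrank with level in both directions, from a median log2 fold change of 1.07 to 0.35 among rises and from −1.31 to −0.35 among falls. Within classes, the rises had the larger median change only in the second, at 0.75 against −0.64, and the third, at 0.51 against −0.43. The median standard error fell from 0.28 in the lowest class to 0.07 in the highest. Naive levels of the rising genes had a median of 24.8 CPM, near the 23.7 CPM of all genes tested, and those of the falling genes a median of 61.9 CPM. Genes that rose more than 2-fold started lower, with a naive median of 5.86 CPM in a range of 0.346 to 154 CPM, and reached a median of 14.9 CPM. Of the rising genes, 3 had a library with no more than 3 counts among the compared pools, and none of the falling genes did.

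Summed over genes, the rising transcripts took 5900, 5941 and 6097 CPM in naive pools 1 to 3 and 8541, 8704 and 8901 CPM in the 1 h pools. The falling transcripts took 9853, 10360 and 8702 CPM in the naive pools and 6994, 6754 and 7167 CPM at 1 h. Naive pool 3 was thus the closest of the naive pools to the 1 h pools in both sums, by a small margin for the rising genes and a larger one for the falling genes. At 6 d the sums were 5625, 6029 and 6149 CPM for the genes that had risen and 9673, 9230 and 9387 CPM for those that had fallen. All 6 d sums lay on the naive side of the 1 h pools. These sums describe the genes chosen by the same pools and carry no test.

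The ID that rose most, ENSRNOG00000000640, stood at 3.58, 4.18 and 2.70 CPM in naive pools 1 to 3 and at 48.6, 43.5 and 49.2 CPM in the 1 h pools. All 1 h pools were more than 10 times as high as any naive pool. The rise was 3.73 on the log2 scale (SE 0.18, edgeR adjusted p = 4.11e-12). At 6 d the pools had 2.09, 5.90 and 4.81 CPM, a range that contained the naive one. Without naive pool 3, its lowest naive value, the log2 fold change was 3.58 (SE 0.20, edgeR adjusted p = 2.05e-11).

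The second ID, ENSRNOG00000008015, had 7.49, 4.07 and 8.96 CPM in the naive pools and 56.9, 51.9 and 62.1 CPM at 1 h. Here naive pool 3 was the highest naive pool, still far below the lowest 1 h pool. The rise was 3.06 (SE 0.16, edgeR adjusted p = 1.09e-11), and 3.27 without naive pool 3 (SE 0.17, edgeR adjusted p = 8.37e-12). The 6 d pools had 4.96, 6.70 and 7.45 CPM, all within the naive range.

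The ID that fell most, ENSRNOG00000037931, had 4.23, 2.86 and 2.82 CPM in the naive pools and 1.35, 0.823 and 1.26 CPM at 1 h, which were only 7 to 12 counts per library. The groups did not overlap, and the naive mean of 3.30 ± 0.803 CPM (SD, n = 3) owed its spread to pool 1. The fall was −1.53 (SE 0.31, edgeR adjusted p = 0.0119), and −1.64 without naive pool 3 (edgeR adjusted p = 0.00969). It was no longer called without naive pool 1 (edgeR adjusted p = 0.118) or 1 h pool 2 (edgeR adjusted p = 0.0918). At 6 d it lay between both groups, at 2.31, 2.28 and 1.72 CPM.

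The next, ENSRNOG00000025587, had 4.56, 2.86 and 2.33 CPM in the naive pools and 1.58, 1.06 and 0.915 CPM at 1 h, or 8 to 14 counts. Naive pool 3 was here the lowest naive pool. The fall was −1.47 (SE 0.33, edgeR adjusted p = 0.0228) and became −1.66 without that pool (edgeR adjusted p = 0.0074). The call was lost without naive pool 1 (−1.13, edgeR adjusted p = 0.208), 1 h pool 2 (adjusted p = 0.113) or 1 h pool 3 (adjusted p = 0.123). At 6 d all pools, at 3.63, 3.22 and 3.90 CPM, lay within the naive range.

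**Figure D3:**
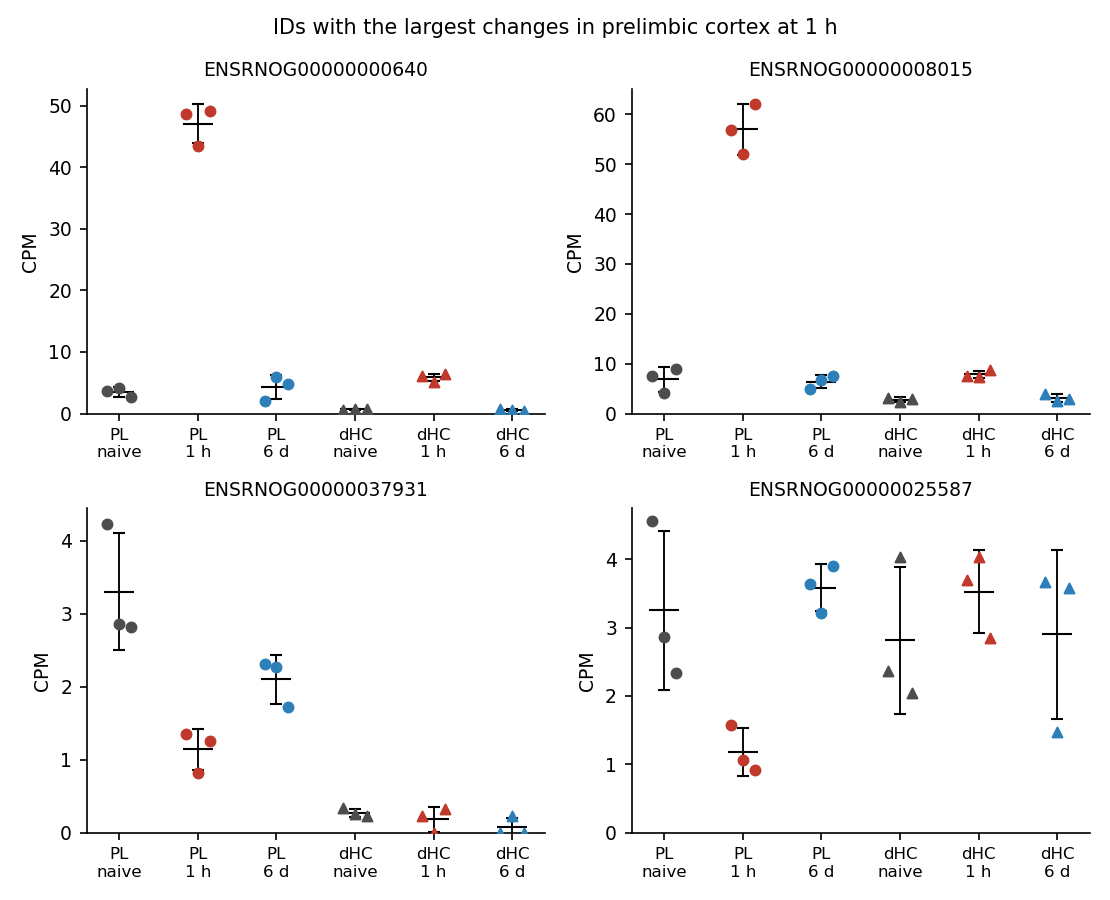
CPM of the 4 IDs in every library, by region and condition; points are pools (circles PL, triangles dHC), horizontal marks the mean and bars the SD of 3 pools. Both rising IDs are above 43 CPM in each PL pool at 1 h and below 9 CPM in every other library, whereas the falling IDs stay under 5 CPM throughout.

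The effect of naive pool 3 was examined next by leaving it out. The number of called genes changed from 206 to 243 (1.68% of 14467 tested), but the balance turned from 112 rises and 94 falls to 89 rises and 154 falls. Of the original rises 78 were still called and 34 were lost, with 11 added. Of the original falls 62 were still called and 32 were lost, while 92 were added. No gene called with all pools changed its direction. The 34 lost rises had a median log2 fold change of 0.43 with all pools and 0.44 without naive pool 3, while their median standard error went from 0.10 to 0.12. Their adjusted p without the pool ran from 0.0515 to 0.108, so these were genes near the threshold. Of the 24 rises over 2-fold, 21 were still called, and of the 44 under 1.5-fold, 21 were.

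The 92 added falls went from a median log2 fold change of −0.36 with all pools to −0.44 without naive pool 3, and the 11 added rises from 0.31 to 0.39. All of these genes had the larger change without the pool, which follows from how they were chosen. The adjusted p of the added falls with all pools had been 0.0521 to 0.327. The 62 falls called both ways went from a median of −0.54 to −0.62, with a median standard error of 0.11 with the pool and 0.09 without it. The 32 lost falls went from −0.39 to −0.34, and the full list of 94 from −0.48 to −0.46, with 58 of the 94 larger without the pool. Within the 94 falls called with all pools, naive pool 3 lay a median of 20.6% of the way from the other naive pools to the 1 h pools, and for 33 genes more than 50% of the way. Naive pools 1 and 2, placed by the same measure, lay at −15.6% and −7.28%, with 2 and 3 genes past 50%. Each pool is placed against the other naive pools, so a shift of 1 toward the 1 h pools moves the others the opposite way. Among the 112 rises, all naive pools lay close to the others, at −1.06%, −1.36% and 2.39%. These positions describe lists that the same pools chose, and the difference between the lists was not tested.

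**Figure D4:**
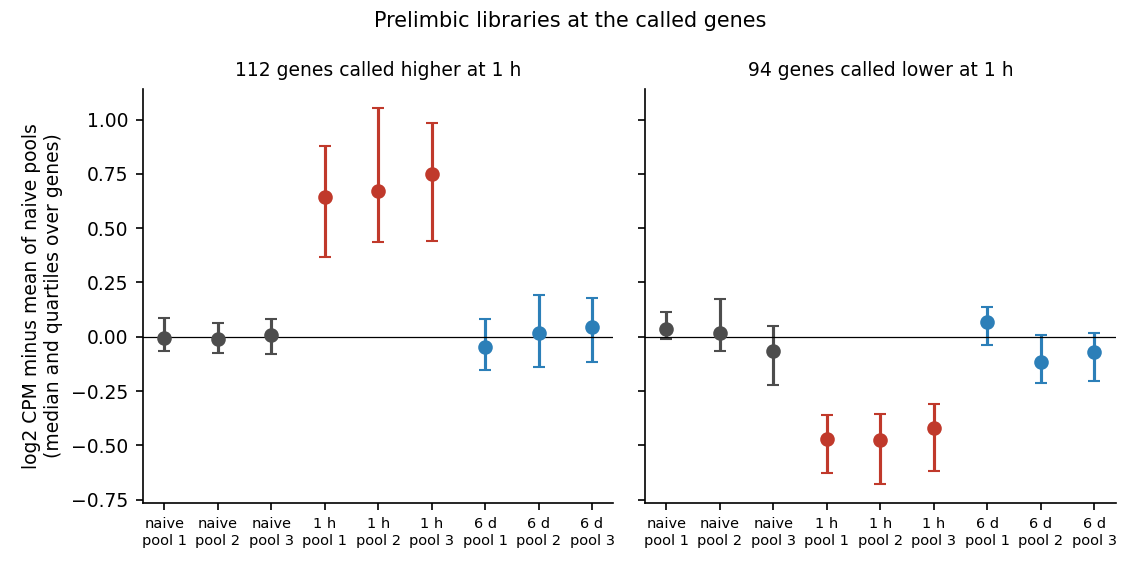
Log2 CPM minus the mean of the 3 naive pools in each prelimbic library, for the 112 genes called higher (left) and the 94 called lower (right); points are medians over genes and bars the quartiles. Naive pool 3 has a median of 0.01 at the genes called higher and −0.07 at those called lower, near the −0.12 and −0.07 of 6 d pools 2 and 3.

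Each pool was then set against genes called without it. The opposite group helped to choose these genes and also sets the called side, so agreement of a left-out pool is partly built in. The counts are a description and no independent test. For genes called in fits that lacked one of the compared pools, the left-out pool lay on the called side for every rise in all 6 fits, in lists of 52 to 89 genes. The median difference between the left-out pool and the opposite group was 0.64 to 0.91 on the log2 scale, where the pools used gave 0.73 to 0.85. For falls the left-out pool lay on the called side for every gene of 5 fits, in lists of 30 to 38 genes, with median differences of 0.45 to 0.57 against 0.56 to 0.64 in the pools used. The exception was naive pool 3. Of the 154 falls called without it, it lay on the called side for 89.0% and on the other side for 17, and its median difference from the 1 h pools was 0.17, where naive pools 1 and 2 gave 0.51.

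The same was measured in fits without any 6 d pool and without 1 of the naive pools, so that the 6 d libraries had no part in the calls. Naive pools 1 and 2 against the 1 h pools gave 808 called genes (5.67% of 14260), 344 higher and 464 lower. At the 464 lower genes, naive pool 3 lay a median of 56.8% of the way from naive pools 1 and 2 to the 1 h pools. The 6 d pools 2 and 3 lay at 66.3% and 56.1%, and 6 d pool 1 at −8.00%. At the 344 higher genes the positions were 34.7% for naive pool 3, 37.5% and 43.9% for 6 d pools 2 and 3 and −14.0% for 6 d pool 1. When naive pool 1 was the one left out, 148 genes were called and that pool lay at 3.98% for the rises and −5.70% for the falls. When naive pool 2 was left out, 430 genes were called and that pool lay at 28.7% and 19.7%. In that fit, which used naive pool 3, 6 d pools 2 and 3 lay at 30.6% and 36.3% for the rises. For the falls they lay at 33.1% and 31.9%. Whether they lay further along than a left-out naive pool would was not tested. Without naive pool 1 they lay at 3.41% and 10.2% for the rises and 15.9% and 14.4% for the falls. Genes chosen because the used naive pools are far from the 1 h pools can lie nearer in a pool not used. The size of this effect was not tested, and 6 d pool 1 lay below 0% for rises and falls alike. The nearest library to 6 d pool 1 was naive pool 1, so the position of 6 d pool 1 does not measure this effect. Both the positions and the order of the pools are therefore given as a description only. Naive pool 3 was past 50% of the way to the 1 h pools at 59.1% of the 464 genes, 6 d pools 2 and 3 at 63.6% and 55.2%, and 6 d pool 1 at 7.33%.

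The number of calls depended on the pools in other ways too. It fell to 92 and 98 without naive pool 1 or 2 and to 98, 89 and 87 without 1 h pool 1, 2 or 3, where between 52 and 66 genes rose and between 30 and 38 fell. Without 6 d pool 1, which belongs to neither compared group, it rose to 574 (251 higher and 323 lower). With only the 6 compared libraries in the fit it was 546 (3.88% of 14056), with 249 higher and 297 lower. All 206 genes were called in both of these fits. Genes called with all pools and in each of the 6 fits that lacked a compared pool numbered 42 rises and 16 falls, with median log2 fold changes of 0.89 and −0.67. The 70 rises and 78 falls that missed at least 1 of these fits had medians of 0.49 and −0.42.

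**Figure D5:**
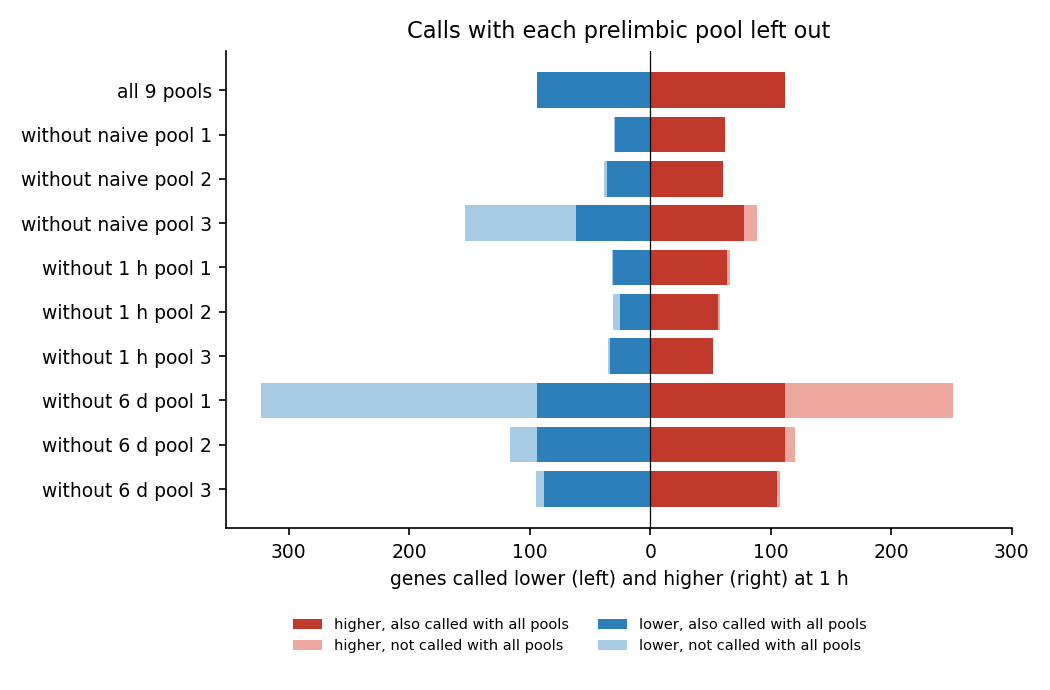
Number of genes called lower (left) and higher (right) at 1 h with all 9 prelimbic pools and with each pool left out; dark bars are genes also called with all pools, light bars genes not called with all pools. Leaving out naive pool 3 adds 92 falls and 11 rises, and leaving out 6 d pool 1 raises both directions.

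The genes of the 1 h comparison were last set beside the other conditions. At 6 d against the same naive pools, 3 of the 112 risen genes and 2 of the 94 fallen genes had more than 50% of their 1 h log2 change. The 24 genes that had risen more than 2-fold had 6 d changes of −0.52 to 1.03 with a median of 0.12. Both sets of changes use the same naive pools.

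Whether the 1 h change itself differed between the regions was tested as an interaction over all 18 libraries, which called 14 genes (0.0947% of 14784). Among them were 9 of the 112 PL rises and 0 of the 94 falls. The PL pools that chose the rises and falls also enter the interaction, so this overlap is not an independent result. These 9 rose by 0.70 to 3.06 in PL and had changes of −0.09 to 1.49 in dHC, with adjusted p from 0.000114 to 0.0327 for the difference by edgeR. ENSRNOG00000008015 was one of them, at 3.15, 2.21 and 2.94 CPM in naive dHC and 7.52, 7.38 and 8.65 CPM in dHC at 1 h. The 14 became 27 without PL naive pool 3, 9 without PL naive pool 2, 7 without PL naive pool 1, PL 1 h pool 1 or dHC naive pool 1, and 6 without dHC 1 h pool 1. The difference for ENSRNOG00000008015 passed in 4 of the 12 fits that lacked 1 compared library, among them the fit without PL naive pool 3. For the remaining rises and for the 94 falls a difference between the regions was not shown. ENSRNOG00000000640 rose in dHC from 0.563, 0.780 and 0.679 CPM to 6.06, 5.14 and 6.35 CPM, and its regional changes, 0.62 apart, did not differ by the test (SE 0.50, edgeR adjusted p = 0.81). ENSRNOG00000025587, which fell in PL, had a dHC log2 change of 0.35 (SE 0.31), and the interaction of −1.82 missed the threshold (SE 0.48, edgeR adjusted p = 0.228). ENSRNOG00000037931 had 0 to 3 counts in every dHC library, at or under the floor, so that no fold is given there.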

How the data were processed

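RNA of the 6 compared pools and the 12 others was sequenced, per the labels' protocols, as stranded polyadenylated RNA (200 ng input, 12 PCR cycles, paired 150 nt reads). The authors deposited raw counts of reads for each gene ID, without normalization, with 5 rows for reads given to no gene (41.97% to 48.4% of PL reads were not aligned), which were left out. The submitters' processing notes name Rnor_6.0, Picard 1.126, bedtools 2.17.0 and DESeq2 without a role; no aligner, counting program, annotation or strand setting is stated in these sources, so overlapping, antisense and near-identical genes are uncertain.

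Counts were fitted by edgeR 4.0.16 under R 4.3.3 (quasi-likelihood F test, TMM, filterByExpr, two-sided, Benjamini-Hochberg) over the 9 PL libraries. Standard errors were derived from the F statistic, and CPM use the library total of gene counts. Alternatives used limma 3.58.1 and DESeq2 1.42.0. The script was also run on counts simulated from the fitted spread, with no pool set apart from its group. That run does not address the dependence on single pools. The 9 pairs of PL replicates differed by more than sampling noise (chi-square per degree of freedom 1.67 to 4.98). IDs given singly were called, averaged 1 CPM or more in the higher group, had no overlap of pools and showed the largest absolute log2 fold change, 2 in each direction. The gene lists and cell type markers prepared by symbol could not be used. The comparison, the lists and the pool singled out were chosen with earlier results of these data known. The labels call the pools independent but name no batch.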

Additional observations from a re-analysis of the deposited data

Results flagged for a closer look

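A difference between the regions in the same contrast drew attention to 14 genes, whose change 1 h after training was not the same in PL and dHC by the interaction test, and to 1 of the 4 IDs given singly. ENSRNOG00000008015 had a log2 change larger by 1.56 in PL than in dHC (SE 0.31, edgeR adjusted p = 0.0327). All 3 pools at 1 h were above all 3 naive pools in each region. It passed in 8 of 16 alternatives, with adjusted p from 3e-06 to 0.321. The 14 genes, 9 of them more positive in PL, became 27 without PL naive pool 3, of which 10 were more positive in PL and 17 in dHC, and all 14 were among the 27.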

How the results depend on the processing

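In 19 alternatives no gene called with all pools changed direction. The 206 calls (112 higher, 94 lower) became 564 (255 and 309) with low counts not filtered, 546 (249 and 297) with the compared groups only, and 808 (344 and 464) when naive pool 3 was also left out. They became 864 (342 and 522) without naive pool 3 and 6 d pool 1, an alternative chosen after seeing the data, as were the positions of pools left out of a call. With the share of reads outside gene models as covariate, 161 genes were lower, and 109 of the 112 rises and 88 of the 94 falls were still called. With any one PL pool left out, the counts ran from 87 to 574 in all, from 52 to 251 higher and from 30 to 323 lower. DESeq2 called 156, limma voom 166, RLE size factors 203 and a minimum mean of 5 CPM 165. The 14 genes differing between regions became 22 with DESeq2, 117 without a filter, 30 with the compared groups only and 6 to 27 with any one compared library left out. PL pools of equal number were correlated in their deviations from the group means by −0.06 to 0.16 over genes, against −0.15 to 0.15 for unequal numbers. Deviations from a mean of 3 pools cancel within a group, so these ranges cannot decide whether pools of equal number belong together. Between PL and dHC pools of a condition the correlations were −0.15 to 0.04 for equal and −0.10 to 0.13 for unequal numbers, and the labels do not say whether both regions came from the same rats. A replicate block gave 312 calls, 159 of them lower, with all 206 still called, and 23 for the regional difference. Over the 500 most variable genes naive pool 3 was again nearer to the 6 d pools than to the other naive pools on average (by −0.02 against −0.01 over all genes), though its nearest library was then 6 d pool 1. The rising IDs were called in all 19 alternatives, and the falling ones, at 7 to 14 counts per 1 h library, in 16 and 15 of 18. These 2 IDs were not tested under a minimum of 5 CPM. The causes were not tested.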
